A study of Homo sapiens with 8 samples.

Results

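Histone genes and chromatin modifiers were followed in MIA PaCa-2, an established line of human pancreatic ductal adenocarcinoma. The cells had been sorted by fluorescence for how readily lactic acid crosses their membrane, into a low fraction (PHLac-low) and a high one (PHLac-high). The genes were chosen by symbol: names that begin with HIST, H2AF, H3F3, H1F, KDM, KMT, HDAC, SETD, KAT, CHD, SMARC, ARID or BRD (the KAT, CHD and BRD stems followed by a digit). The rule found 48 of the 3666 genes in the authors' deposited table: 11 cluster histones, 5 histone variants and 32 enzymes, readers and remodellers. Sorting was repeated 4 times with 1 library per fraction each time, giving 4 PHLac-low and 4 PHLac-high libraries. Both fractions were wild-type cells of the same line with no drug treatment. Both had been exposed briefly to lactate-containing medium, which was washed out, because the sort requires it. The labels call the tissue pancreatic ductal adenocarcinoma and the cell type adenoma. The series description states that the libraries of a repeat are paired.

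Histones package DNA into nucleosomes. The cluster histone genes lie together in the genome, lack introns for the most part and are transcribed mainly during DNA replication, and their mRNAs usually end in a stem-loop bound by SLBP in place of a poly(A) tail. Histone variants such as H3.3 and H2A.Z are made throughout the cell cycle from mRNAs with poly(A) tails and replace the standard histones at particular places. Methyltransferases, acetyltransferases, demethylases and deacetylases write and erase marks on histone tails, bromodomain proteins read acetyl marks, and CHD and SWI/SNF proteins move nucleosomes.

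The authors' deposited table holds only genes with an adjusted p of up to 0.05, so that all 48 genes were selected for a difference between these same libraries, and members of these families that are not in the table were not analysed here. Of the annotated protein-coding genes whose symbol matches, the table holds 11 of 71 cluster histones (15.5%), 5 of 16 variants, and from 4 of 20 demethylases to 5 of 11 deacetylases (45.5%) among the enzyme families, against 16.7% of all 19936 protein-coding symbols. Normalised counts are the authors' scaled read signal per gene, with no correction for gene length, so levels are compared between libraries and not between genes. All values of a library were whole multiples of 1 step, which was 0.48 (PHLac-low, repeat 3) to 1.32 normalised counts (PHLac-high, repeat 4). If a step is 1 read, the listed genes held 8979276 to 23176205 reads per library, but 4 of the 8 columns held under 100 low values, too few to show that a step is 1 read, so the depth is not certain. Of 21 marker genes of pancreatic duct and other cell types, 5 were in the table. The duct keratin KRT19 was present in every library at normalised counts from 14790.3 to 24031. The other 4 were CD68, which was higher in PHLac-high, and PTPRC, ACTA2 and COL1A1, which were lower. The leukocyte gene PTPRC stood at 262 ± 107 for PHLac-low and 103 ± 43.4 for PHLac-high (SD, n = 4). The part of other cells in the results was not tested.

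The stem-loops are shown because the end of the mRNA is what sets most cluster histones apart from the variants. Each stem-loop was read from GENCODE release 29 transcripts with 1 search: GG and 4 more bases, a loop of TTT and 1 base, then the reverse complement of the first 6 bases. It occurs in 0.089% of 83129 protein-coding transcripts. Among the histone genes it was found in the annotated transcripts of 5 of 11 cluster histones and of 1 of 5 variants, H2AFX. Capitals mark the stem and small letters the loop, written in DNA letters.
HIST1H2AC: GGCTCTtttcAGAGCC
HIST2H2BE: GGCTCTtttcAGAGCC
HIST2H2BF: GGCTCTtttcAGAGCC
HIST1H2BD: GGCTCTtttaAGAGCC
HIST1H4H: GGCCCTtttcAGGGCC
H2AFX: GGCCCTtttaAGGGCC

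The first 3 are identical. Counted from 1 at the 5′ end and against HIST1H2AC, HIST1H2BD carries C10A in the loop, HIST1H4H carries T4C with A13G, which keeps the stem paired, and H2AFX carries T4C, C10A and A13G. The annotation follows these stem-loops with further transcript: 39 bases in HIST1H2BD, 1044 in H2AFX, 1128 in HIST1H2AC, 1479 in HIST2H2BF, 1655 in HIST1H4H and 1729 in HIST2H2BE, in the transcript that runs on longest. Each of these 6 genes has an annotated transcript with the poly(A) signal AATAAA or ATTAAA in its last 50 bases. So do all 5 variants. For the other 6 cluster histones (HIST1H1B, HIST1H1C, HIST1H2AB, HIST1H2BK, HIST1H3D and HIST1H4C) neither element was found in the annotated transcripts, which are from 381 to 681 bases long. An element past the annotated end would be missed, so this does not show that their mRNAs lack a stem-loop. The labels say that mRNA was selected from total RNA, without naming how, so the values do not tell which end form was counted.

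Promoters were taken from RefSeq (GRCh38.p14), from 250 bases before to 50 bases after the gene start, and 14 of the 16 histone genes matched an entry (the first entry was used for the 3 genes with 2). They were searched on both strands for CCAAT (bound by NF-Y), for the TATA box as TATAAA, for the octamer found in histone H2B promoters as ATTTGCAT, and for the H1 box of linker histone promoters as AAACACA. These motifs do not overlap each other here except where TATAAA meets its own reverse complement. 5 are printed, 5′ to 3′ on the gene's strand, with matches in capitals: 4 cluster histones that differ in their motifs and the variant H3F3B.
HIST1H2BK, chr6:27146809-27147108, strand -: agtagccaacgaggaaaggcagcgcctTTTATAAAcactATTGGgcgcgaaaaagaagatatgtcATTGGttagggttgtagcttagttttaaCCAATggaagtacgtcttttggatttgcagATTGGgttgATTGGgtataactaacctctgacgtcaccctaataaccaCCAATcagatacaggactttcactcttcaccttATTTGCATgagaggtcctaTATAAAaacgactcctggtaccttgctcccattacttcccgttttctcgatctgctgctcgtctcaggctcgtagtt
HIST1H2AC, chr6:26123922-26124221, strand +: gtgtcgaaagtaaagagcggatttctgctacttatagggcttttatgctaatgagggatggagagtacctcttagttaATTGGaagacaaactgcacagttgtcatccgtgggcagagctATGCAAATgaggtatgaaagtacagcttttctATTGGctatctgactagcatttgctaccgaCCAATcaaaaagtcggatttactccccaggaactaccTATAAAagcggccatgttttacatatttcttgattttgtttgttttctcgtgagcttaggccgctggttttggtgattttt
HIST1H1C, chr6:26056421-26056720, strand -: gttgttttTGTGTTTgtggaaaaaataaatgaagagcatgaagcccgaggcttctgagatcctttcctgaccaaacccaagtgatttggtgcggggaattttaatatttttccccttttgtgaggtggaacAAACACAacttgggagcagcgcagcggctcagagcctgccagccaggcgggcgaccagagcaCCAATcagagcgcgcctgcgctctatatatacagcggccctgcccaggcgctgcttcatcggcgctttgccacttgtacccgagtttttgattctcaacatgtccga
HIST1H4H, chr6:26285485-26285784, strand -: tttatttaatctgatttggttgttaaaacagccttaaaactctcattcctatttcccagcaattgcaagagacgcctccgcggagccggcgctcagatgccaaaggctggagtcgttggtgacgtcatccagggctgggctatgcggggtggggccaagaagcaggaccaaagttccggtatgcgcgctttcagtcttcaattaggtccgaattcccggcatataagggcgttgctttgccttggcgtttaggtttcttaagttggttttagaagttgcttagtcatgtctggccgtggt
H3F3B, chr17:75779730-75780029, strand -: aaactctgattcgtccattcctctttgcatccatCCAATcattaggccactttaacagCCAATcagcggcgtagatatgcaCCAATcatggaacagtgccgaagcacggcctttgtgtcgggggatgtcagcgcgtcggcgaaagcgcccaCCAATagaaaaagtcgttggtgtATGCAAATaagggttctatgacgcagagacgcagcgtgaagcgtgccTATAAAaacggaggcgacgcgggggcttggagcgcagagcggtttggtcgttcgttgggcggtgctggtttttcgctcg

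CCAAT was found in 9 of 10 cluster histone promoters and 3 of 4 variant promoters, against 34.6% of 35116 promoters of the same length. TATAAA was found in 5 of 10 and 3 of 4, against 11.5%. In these 8 genes the copy nearest the start lay on the gene's strand, beginning 27 to 31 bases before the start. The octamer was found in 6 of 10 and, among the variants, in H3F3B, against 1.77%. The H1 box was found in the linker histone genes HIST1H1B and HIST1H1C and in no other of the 14, against 5.64%. H1F0, also a linker histone gene, and HIST1H4C had no promoter entry and were not searched. HIST1H4H and H2AFY2 held none of the 4 motifs in this window. Any relation of the motifs to the changes between fractions was not tested.

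**Figure D1:**
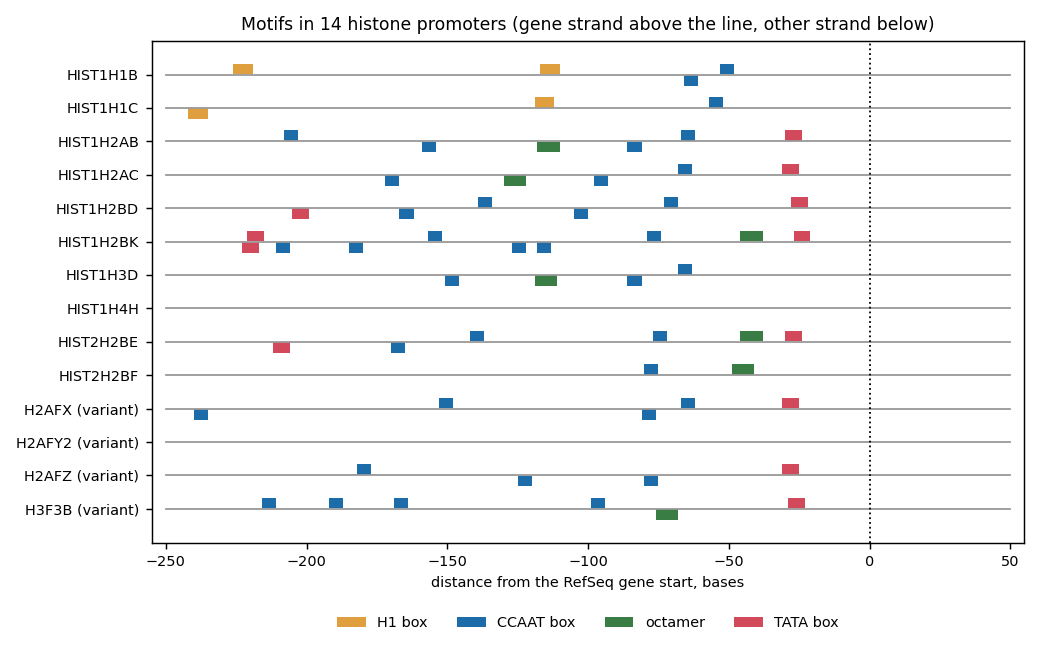
Positions of 4 motifs in 14 histone promoters, in bases from the RefSeq gene start; a bar above a line is on the gene's strand and one below it is on the other strand. The TATA motif next to the start is seen in 8 genes, and the H1 box in HIST1H1B and HIST1H1C only.

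Cluster histone transcripts were higher in PHLac-high for all 11 genes, the variants split into 3 higher and 2 lower, and the enzymes and remodellers moved in both directions. Each gene was tested with limma on log2(normalised count + 1) with the repeat as a block, and p-values were adjusted over all 3666 genes by the Benjamini-Hochberg method. Fold changes on this scale understate the change of low genes. By the authors' deposited table, 35 of the 48 genes had a log2 fold change above 0, against 58.8% of all genes listed. The direction was shared by all 4 repeats for 44 of the 48, against 96.1% of the table, and the exceptions were HIST2H2BE, KAT6A, KAT7 and KDM2B. With upper-quartile scaling, whose factors were computed from the listed genes alone, 30 of the 48 passed, against 64.4%. A limma change of at least 0.5 in log2 units was reached by 13 genes upward and 2 downward, against 19.5% and 19.4% of the table. In these bulk samples a change in the share of cells and a change in RNA per cell cannot be told apart.

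All 11 cluster histones were higher in PHLac-high and passed, with mean fold changes from 1.23 to 3.83 and limma adjusted p from 0.00153 to 0.019. Of all listed genes 99.9% passed, 58.7% higher and 41.2% lower, so passing is a property of the table. The direction of all 11 held with upper-quartile scaling and after correction for GC content and length. In these fits 1984 of 3666 and 1906 of 3509 listed genes were higher. All 11 also stayed higher in each fit without 1 repeat. The whole table kept 2156 higher and 1510 lower genes in each of those fits, so this too is a property of the table. Without the replicate block 3 of the 11 passed (HIST2H2BF, HIST1H4C and HIST1H4H), against 31% of the table (20.3% higher and 10.7% lower). The median log2 change of the 11 genes was 0.98, against 0.25 for all listed genes. Over genes with a mean normalised count of at least 100 it was 0.40 (5 cluster histones), against 0.25. For all 11, within repeats 1 to 4 the medians were 0.93, 0.66, 0.65 and 0.42 against 0.22, 0.18, 0.17 and 0.20.

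Linker histones bind the DNA between nucleosomes. HIST1H1C (chr6:26055740-26056470, named H1-2 in RefSeq) had normalised counts of 399.6, 324, 195 and 931 in the PHLac-low libraries and 512, 488, 241 and 1242 in the PHLac-high ones, in repeats 1 to 4. Both fractions of repeat 4 were the highest of their group and both of repeat 3 the lowest, and the groups overlapped. The change was 0.42 ± 0.091 on the log2 scale (SE, adjusted p from limma = 0.00327), and it was positive in all 4 repeats. HIST1H1B (chr6:27866792-27867588, H1-5) had normalised counts of 9.43, 8.62, 2.88 and 26.7 in the PHLac-low libraries and 30.4, 14.2, 10.7 and 67.5 in the PHLac-high ones, from 6 to 51 steps. Its order of repeats was the same in both fractions, with a log2 change of 1.29 ± 0.34 (SE, adjusted p from limma = 0.00695).

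The H2A and H2B genes encode core histones that pair as dimers. HIST1H2AC (chr6:26124172-26124690) is one of the genes with both a stem-loop and a poly(A) signal among its annotated transcripts. It had normalised counts of 526, 390.2, 272 and 847 in the PHLac-low libraries and 707, 545, 428 and 1087 in the PHLac-high ones. Every repeat rose, although the spread between repeats was wider than the step between fractions (log2 change 0.48 ± 0.087, SE, limma adjusted p = 0.00153). HIST1H2BK (chr6:27138293-27146858) showed 952, 719, 748 and 1745 in the PHLac-low libraries and 1030.1, 1054, 917 and 2301 in the PHLac-high ones. The values of HIST1H2BD (chr6:26158121-26171349) were 270.1, 242, 205 and 539 in the PHLac-low libraries and 348, 351, 298 and 605 in the PHLac-high ones. Both rose in every repeat, by a log2 change of 0.34 ± 0.085 and 0.40 ± 0.11 (SE), with overlap between the groups. After upper-quartile scaling HIST1H1C, HIST1H2BD, HIST1H2BK and HIST2H2BE did not pass.

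HIST2H2BE (chr1:149884459-149886682) was the cluster histone whose call was least stable. Its normalised counts were 256, 314, 256 and 604 in the PHLac-low libraries and 364, 474, 354 and 569 in the PHLac-high ones. The PHLac-low library of repeat 4 exceeded every PHLac-high library, and the changes were 0.50, 0.59, 0.47 and -0.085 in repeats 1 to 4. The log2 change of 0.37 ± 0.13 (SE, adjusted p from limma = 0.019) did not pass without repeat 1, 2 or 3 (adjusted p of 0.068, 0.095 and 0.066) and passed without repeat 4. HIST2H2BF (chr1:149782689-149812370) had 17.2, 14.8, 17.7 and 30.8 in the PHLac-low libraries and 64.3, 46.6, 46.5 and 46.3 in the PHLac-high ones. All 4 PHLac-high libraries lay above all 4 PHLac-low ones, with a log2 change of 1.34 ± 0.28 (SE, adjusted p from limma = 0.00288).

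HIST1H2AB (chr6:26033092-26033618) had the largest change among the cluster histones and the lowest mean normalised count. Its normalised counts were 2.57, 4.92, 3.36 and 8.22 in the PHLac-low libraries and 8.18, 23.3, 7.16 and 34.4 in the PHLac-high ones, or 3, 4, 7 and 8 steps and 7, 23, 6 and 26 steps. Repeats 2 and 4 carried most of the PHLac-high signal, and the groups overlapped (log2 change 1.56 ± 0.44, SE, limma adjusted p = 0.00839).

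H3 and H4 form the tetramer at the centre of the nucleosome. HIST1H4H (chr6:26285126-26285534) had normalised counts of 41.2, 18.5, 24.9 and 78.1 in the PHLac-low libraries and 79.5, 89.1, 101 and 138 in the PHLac-high ones, so that the groups did not overlap. Its log2 change was 1.48 ± 0.28 (SE, adjusted p from limma = 0.00173), and 0.93, 2.21, 1.98 and 0.81 in repeats 1 to 4. HIST1H4C (chr6:26103933-26104337) showed 8.58, 14.8, 11 and 27.7 in the PHLac-low libraries and 30.4, 30.4, 34.6 and 39.7 in the PHLac-high ones. This H4 gene did not overlap between the groups either, with a log2 change of 1.19 ± 0.32 (SE, adjusted p from limma = 0.00673). HIST1H3D (chr6:26196784-26199293) had 15.4, 28.3, 24 and 56.5 in the PHLac-low libraries and 60.8, 69.9, 32.2 and 71.5 in the PHLac-high ones, and its changes of 1.91, 1.27, 0.41 and 0.33 in repeats 1 to 4 show that repeats 1 and 2 carried most of the difference. Its log2 change of 0.98 ± 0.31 (SE, adjusted p from limma = 0.0124) did not pass without repeat 1 or without repeat 2 (adjusted p of 0.06 and 0.059).

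Cluster histones with low counts had the larger estimates. The 6 genes with a mean normalised count under 100 (HIST2H2BF, HIST1H2AB, HIST1H4C, HIST1H3D, HIST1H4H and HIST1H1B) had log2 changes from 0.98 to 1.56, and the 5 at or above it from 0.34 to 0.48. The table was selected on p-value, so low counts and large changes cannot be told apart here. The summed normalised count of the 11 genes was 2498, 2079, 1760.0 and 4894 in the PHLac-low libraries and 3235, 3187, 2472 and 6201 in the PHLac-high ones. Within repeats 1 to 4 this sum changed by 0.37, 0.62, 0.49 and 0.34 on the log2 scale. For 3 of the 11 genes (27.3%) the groups did not overlap, against 36.7% of the table. Cluster histone genes of a type are similar in sequence, H3F3B and H2AFZ have processed pseudogenes, and KMT2C has partial copies elsewhere in the genome. The authors' handling of reads that match several copies is not given in the sources used here, so their division among copies is uncertain.

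Repeat 4 stood above the others for these genes in both fractions. In PHLac-low its library was the highest of the group for 11 of 11 cluster histones, by a median of 1.18 on the log2 scale over the mean of repeats 1 to 3, and the smallest excess was 0.86. In PHLac-high it was the highest for 10 of 11, with a median of 0.86. The same medians over all listed genes were -0.021 and -0.046. Transcripts of DNA replication and histone supply moved the same way in repeat 4: PCNA, the sliding clamp of the replication fork, was higher there by 1.02 in PHLac-low and 1.47 in PHLac-high. CCNE2, a cyclin of the entry into S phase, was higher by 1.62 and 1.20, and NASP, a histone H3 and H4 chaperone, by 0.57 and 0.81. Smaller excesses were seen for the cyclin CCNE1 (0.22 and 0.41) and the chaperone genes HIRA (0.14 and 0.47) and UBN1 (0.056 and 0.23). The part of cell cycle position in the histone values was not tested. Without repeat 4 the median change of the 11 genes was 1.20, and all 11 passed.

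Between the fractions, 4 of 34 DNA replication genes were in the table, against 16.7% of all protein-coding symbols. CCNE2 had normalised counts of 90.9, 54.2, 209 and 313 in the PHLac-low libraries and 172, 121, 254 and 399.8 in the PHLac-high ones, with overlap, and rose in every repeat (log2 change 0.67 ± 0.17, SE, limma adjusted p = 0.00586). PCNA had 1997, 1363, 2149.9 and 3662 in the PHLac-low libraries and 2545, 1683, 1984 and 5636 in the PHLac-high ones, and its change of 0.29 ± 0.11 (SE, adjusted p from limma = 0.0251) was seen in 3 of 4 repeats. PCNA did not pass without repeat 1, 2 or 4 (adjusted p of 0.068, 0.082 and 0.095), nor with upper-quartile scaling (0.065, adjusted p = 0.585) or median-of-ratios scaling (0.17, adjusted p = 0.125), and its estimate was -0.023 after correction for GC content and length. CCNE1 passed in the higher direction (not after upper-quartile scaling) and POLE, a polymerase subunit, in the lower, each in 3 of 4 repeats. Of 11 histone mRNA processing genes, SLBP and LSM10 were in the table. SLBP binds the stem-loop printed above, and LSM10 belongs to the U7 particle that cuts histone pre-mRNA. They rose by 0.26 ± 0.072 and 0.27 ± 0.086 on the log2 scale (SE), and by 0.034 and 0.046, without passing, after upper-quartile scaling. LSM10 also missed the threshold without repeat 1 (adjusted p = 0.063).

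**Figure D2:**
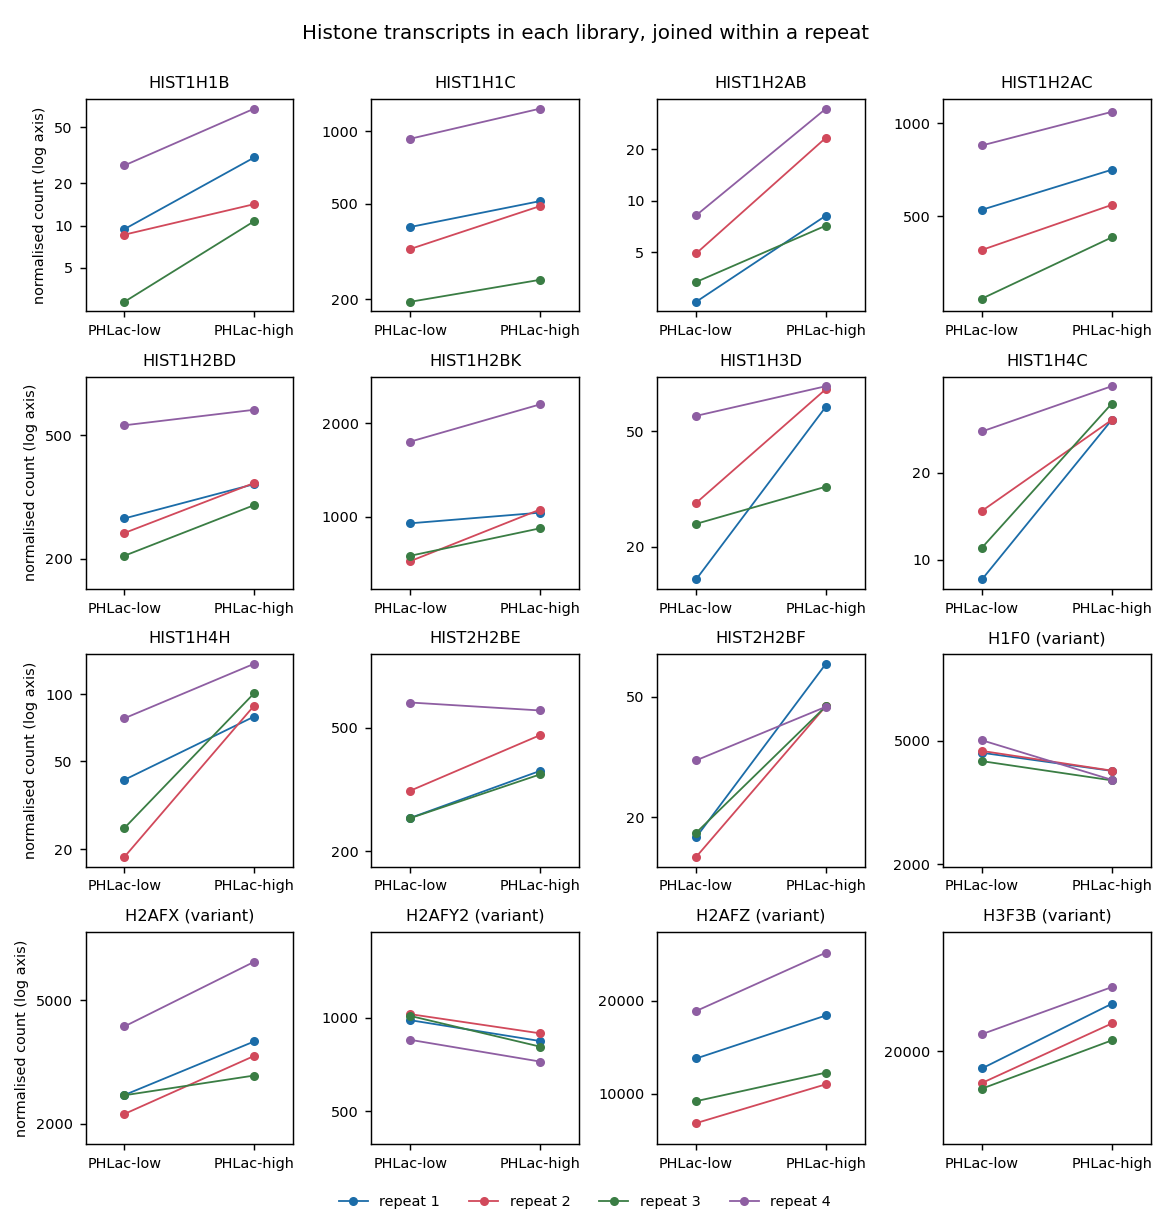
Normalised counts (log axis) of 11 cluster histones and 5 histone variants in the PHLac-low and PHLac-high libraries; each line joins the 2 libraries of 1 repeat. The lines rise for every cluster histone except for HIST2H2BE in repeat 4, fall for H1F0 and H2AFY2, and repeat 4 lies highest in most panels.

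Histone variants split in direction: 3 of 5 rose and 2 fell, and all 5 passed in limma with the block. Of all listed genes 58.7% passed higher and 41.2% lower. H3F3B (chr17:75776434-75779779), which encodes the replacement histone H3.3, had normalised counts of 17621, 15818, 15163 and 22717 in the PHLac-low libraries and 28464, 24590.4, 21692 and 32211 in the PHLac-high ones. Each PHLac-high library exceeded its own PHLac-low partner, while repeat 3 in PHLac-high lay just under repeat 4 in PHLac-low. The estimated change was 0.59 ± 0.054 in log2 units (SE, adjusted p from limma = 0.000103), from 0.50 to 0.69 across repeats. It was the only variant that passed without the replicate block.

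H2AFZ (chr4:99948088-99950275) encodes H2A.Z, which marks promoters and enhancers. Normalised counts of 13013, 8055, 9479.7 and 18509 in the PHLac-low libraries and 17908, 10746, 11716 and 28550.2 in the PHLac-high ones were found. Repeats differed more than fractions did, and within each repeat the change was 0.46, 0.42, 0.31 and 0.63 (log2 change 0.45 ± 0.062, SE, limma adjusted p = 0.000434). After correction for GC content and length it was 0.12 and did not pass.

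H2AFX (chr11:119093874-119095465) encodes H2A.X, which is phosphorylated around DNA breaks and is the variant whose transcript holds the stem-loop. It had normalised counts of 2479, 2154, 2475 and 4125 in the PHLac-low libraries and 3690.1, 3314, 2865 and 6665 in the PHLac-high ones. Repeat 4 was far above the rest in both fractions, and all 4 repeats rose (log2 change 0.52 ± 0.083, SE, limma adjusted p = 0.000842).

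H1F0 (chr22:37805229-37807432) encodes the linker histone H1.0, known from cells that have stopped dividing or differentiated. It had 4581, 4644, 4305 and 5026 in the PHLac-low libraries and 4005, 4012, 3734 and 3748 in the PHLac-high ones, a narrow range in each group with no overlap. It fell by 0.26 ± 0.061 on the log2 scale (SE, adjusted p from limma = 0.00441). H2AFY2 (chr10:70052846-70112282) encodes macroH2A2, a variant with a large extra domain that is linked to silent chromatin. It had 983, 1028, 1014 and 849 in the PHLac-low libraries and 842, 891, 808 and 723 in the PHLac-high ones and fell in all 4 repeats (log2 change -0.25 ± 0.071, SE, limma adjusted p = 0.00895).

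A factor per library shifts all genes alike, so the ratio of 2 genes within a library is free of it, though not of GC content and length. The log2 ratio of H2AFZ to H2AFY2 was higher in PHLac-high by 0.68, 0.62, 0.63 and 0.86 in repeats 1 to 4 (mean 0.70 ± 0.11, SD, n = 4). This pair and the pairs below were chosen after their values were seen, so that the direction of each ratio is no separate result.

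The 32 enzymes, readers and remodellers were next compared between the fractions. In limma with the block 21 rose and 11 fell, beside 58.7% and 41.2% of the table. Their median log2 change was 0.28, close to the 0.25 of all listed genes. Most changes were small: 5 reached 0.5 upward and 2 reached -0.5 downward. The increases depended on scaling. The upper-quartile factors were computed from the listed genes alone, which were selected for a difference and were more often higher than lower. A call lost under this scaling therefore does not show that a gene was unchanged. After upper-quartile scaling, which moved the median of all listed genes from 0.25 to 0.021, 7 rose and 11 fell among those that passed (23.2% and 41.2% of the table), and without the replicate block 9 rose and 2 fell (20.3% and 10.7% of the table). The groups did not overlap for 14 of the 32 (43.8%), against 36.7% of the table.

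Lysine demethylases remove methyl groups from histone tails. KDM2A, which acts on H3 lysine 36 and binds CpG islands, had the largest increase of the 32. Its normalised counts were 3806, 3781, 3662 and 3681 in the PHLac-low libraries and 6499, 6173, 6049 and 7102 in the PHLac-high ones. The PHLac-low libraries lay within a narrow band, and all PHLac-high libraries were far above it. The estimated change was 0.79 ± 0.06 in log2 units (SE, adjusted p from limma = 5.1e-05), and it passed in every alternative run, with 0.56 after upper-quartile scaling and 0.70 after GC and length correction.

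KDM2B, the paralog of KDM2A that recruits a polycomb complex to CpG islands, went the other way. It had 1275, 1339, 1102 and 1129.8 in the PHLac-low libraries and 995, 984, 855 and 1143 in the PHLac-high ones. Repeats 1 to 3 fell and repeat 4 did not (log2 changes -0.36, -0.44, -0.36 and 0.016), and the fall of 0.29 ± 0.09 (SE, adjusted p from limma = 0.0125) did not pass without repeat 2 (adjusted p = 0.069). Within libraries, the log2 ratio of KDM2A to KDM2B rose by 1.13, 1.15, 1.09 and 0.93 in repeats 1 to 4 (mean 1.08 ± 0.10, SD, n = 4). KDM5B, which acts on H3 lysine 4, and KDM3A, which acts on H3 lysine 9, rose by 0.23 ± 0.055 and 0.22 ± 0.059 (SE), and neither increase remained after upper-quartile scaling, where the estimates were 0.0038 and -0.0095. For KDM5B the estimate was -0.032 after GC and length correction.

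Among methyltransferases 4 of 5 rose, against 58.7% of the table. KMT2C and KMT2D are the catalytic subunits of the complexes that place the enhancer mark on H3 lysine 4. KMT2C had 1995, 2059, 1798 and 1816 in the PHLac-low libraries and 3246, 2549, 3158 and 2399 in the PHLac-high ones, without overlap, and a log2 change of 0.56 ± 0.091 (SE, adjusted p from limma = 0.00097). KMT2D rose by 0.32 ± 0.081 (SE), from as little as 0.039 in repeat 2 to 0.52 in repeat 1. SETD7, a mono-methyltransferase, rose by 0.34 ± 0.058 and SETD2, the enzyme of H3 lysine 36 trimethylation, by 0.29 ± 0.069 (SE). KMT2D, SETD7 and SETD2 did not pass after upper-quartile scaling.

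SETDB1, which places the silencing mark on H3 lysine 9, was the methyltransferase that fell. Normalised counts of 2205, 2129, 1682 and 1546 in the PHLac-low libraries and 1571, 1626, 1219 and 1239 in the PHLac-high ones were found. It fell in all 4 repeats, by 0.42 ± 0.064 on the log2 scale (SE, adjusted p from limma = 0.000744). The PHLac-high libraries of repeats 1 and 2 lay above the PHLac-low library of repeat 4, so the groups overlapped.

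Changes of the 3 acetyltransferases were small. KAT6A, the catalytic subunit of a MYST complex, rose by 0.28 ± 0.082 (SE, adjusted p from limma = 0.0092), with 0.33, -0.001, 0.34 and 0.47 in repeats 1 to 4. KAT2A, also known as GCN5 and part of SAGA, fell by 0.21 ± 0.053 (SE). KAT7, a MYST enzyme that acts at replication origins, fell by 0.26 ± 0.081 (SE, adjusted p from limma = 0.0133). Its normalised counts were 2090.0, 1926, 1893 and 2173 in the PHLac-low libraries and 1555, 1564, 1517 and 2199 in the PHLac-high ones, and repeat 4 did not share the fall. KAT7 missed the threshold without repeat 1, 2 or 3 (adjusted p of 0.067, 0.058 and 0.051). The groups overlapped for all 3 acetyltransferases, and the log2 ratio of KAT6A to KAT7 rose by 0.76, 0.30, 0.66 and 0.45 in repeats 1 to 4 (mean 0.54 ± 0.21, SD, n = 4).

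Histone deacetylases split by member. HDAC10, a class IIb enzyme best known as a polyamine deacetylase, had the largest decrease among them with the authors' scaling. It had 1999.9, 2342, 1908 and 1619 in the PHLac-low libraries and 1248, 1541, 1322 and 1039 in the PHLac-high ones, without overlap, and fell by 0.61 ± 0.063 (SE, adjusted p from limma = 0.000145). HDAC6, a cytoplasmic tubulin deacetylase, fell by 0.28 ± 0.061 (SE). HDAC1, the catalytic subunit of several nuclear corepressor complexes, had 20214, 14318, 18452 and 17968 in the PHLac-low libraries and 17118, 12844, 13892 and 16137 in the PHLac-high ones and fell by 0.24 ± 0.059 (SE). All 3 fell in every repeat. After GC and length correction the order changed, with HDAC1 at -0.45, HDAC10 at -0.26 and HDAC6 at -0.18.

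The class IIa enzymes HDAC4 and HDAC9, which shuttle between nucleus and cytoplasm and bind MEF2 factors, rose by 0.35 ± 0.092 and 0.30 ± 0.064 (SE) in all 4 repeats. After upper-quartile scaling they were 0.12 and 0.074 and did not pass. The log2 ratio of HDAC4 to HDAC10 rose by 1.20, 0.74, 0.74 and 1.16 in repeats 1 to 4 (mean 0.96 ± 0.25, SD, n = 4). A factor per library cannot move this ratio, but GC and length correction brought the 2 genes closer, to 0.31 and -0.26.

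The bromodomain genes BRD2 and BRD1 rose. BRD2, a BET protein that reads acetylated H4, had 12320.2, 13580.0, 13856 and 10060.2 in the PHLac-low libraries and 19933, 21598, 19994 and 19117 in the PHLac-high ones. No PHLac-low library reached the lowest PHLac-high library, and the log2 change was 0.70 ± 0.068 (SE, adjusted p from limma = 0.000113), with 0.48 after upper-quartile scaling. BRD1, a scaffold of acetyltransferase complexes, rose by 0.35 ± 0.087 (SE) and did not overlap between groups.

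The CHD remodellers, all 3 of which rose, passed after upper-quartile scaling and after GC and length correction. Of all genes tested in these fits, 23.2% and 32.7% passed higher. CHD1, which travels with elongating polymerase, had 4808, 4686, 4221 and 3436 in the PHLac-low libraries and 7542, 5799, 6706 and 5506 in the PHLac-high ones. CHD1 did not overlap between groups and changed by 0.58 ± 0.073 (SE, adjusted p from limma = 0.000332). CHD2 rose by 0.45 ± 0.072 and CHD7, the gene of CHARGE syndrome, by 0.66 ± 0.11 (SE, adjusted p from limma = 0.000856 and 0.00112). CHD7 had 178, 251, 310.3 and 245 in the PHLac-low libraries and 256, 366, 600.0 and 383 in the PHLac-high ones, with repeat 3 highest in both fractions.

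Genes named SMARC and ARID are SWI/SNF subunits only in part. Of the SWI/SNF subunits proper, ARID1A and ARID2 rose, by 0.27 ± 0.076 and 0.39 ± 0.081 (SE), and SMARCC2, a core scaffold subunit, fell by 0.24 ± 0.055 (SE). ARID1A and ARID2 did not pass after upper-quartile scaling, and ARID2 did not after GC and length correction. SMARCAL1, an annealing helicase of stalled replication forks and no SWI/SNF subunit, fell by 0.25 ± 0.073 (SE), and just missed the threshold without repeat 1 (adjusted p = 0.0503).

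ARID4A and ARID4B, which bind RB and belong to SIN3 corepressor complexes, rose by 0.27 ± 0.067 and 0.46 ± 0.071 (SE). Both showed no overlap between groups, and ARID4B also passed after upper-quartile scaling. ARID3A, a B-cell transcription factor, fell by 0.35 ± 0.092 (SE). The related ARID5A, an RNA-binding protein that stabilises IL6 mRNA, had 155, 219, 198 and 215 in the PHLac-low libraries and 255, 306, 262 and 253 in the PHLac-high ones and rose by 0.46 ± 0.12 (SE, adjusted p from limma = 0.00646), without overlap. It did not pass after upper-quartile scaling or without the replicate block.

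ARID5B, a DNA-binding partner of the demethylase PHF2, had the largest change of all 48 genes. Its normalised counts were 54, 51.7, 55.2 and 20.5 in the PHLac-low libraries and 18.7, 7.09, 15.5 and 5.30 in the PHLac-high ones. The lowest PHLac-low value, in repeat 4, lay just above the highest PHLac-high value, in repeat 1. ARID5B fell by 1.93 ± 0.32 on the log2 scale (SE, adjusted p from limma = 0.000978); the changes were -1.48, -2.70, -1.77 and -1.77 in repeats 1 to 4. It kept its direction and passed in every alternative in which it was tested, including the fit without the replicate block. Its counts were low, and it was left out of the fit of genes with a mean normalised count of at least 100.

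**Figure D3:**
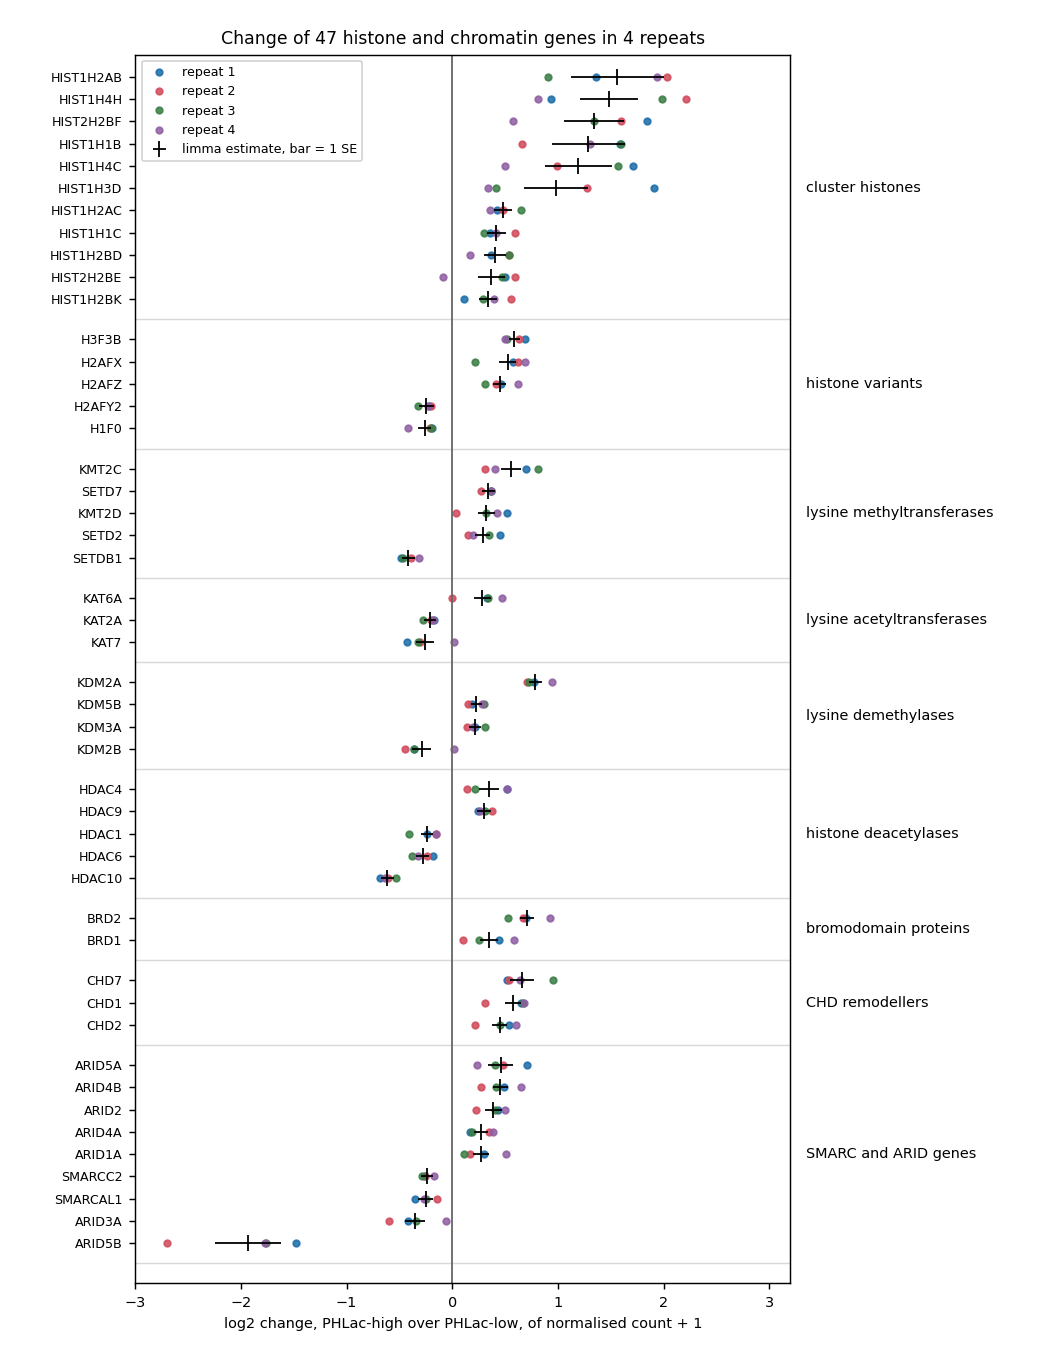
Log2 change (PHLac-high over PHLac-low, of normalised count + 1) of 47 genes by class; coloured points are the 4 repeats, the black mark is the limma estimate and its bar 1 SE. Cluster histones lie to the right of 0 apart from HIST2H2BE in repeat 4, the enzymes lie on both sides, and ARID5B lies farthest to the left.

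**Figure D4:**
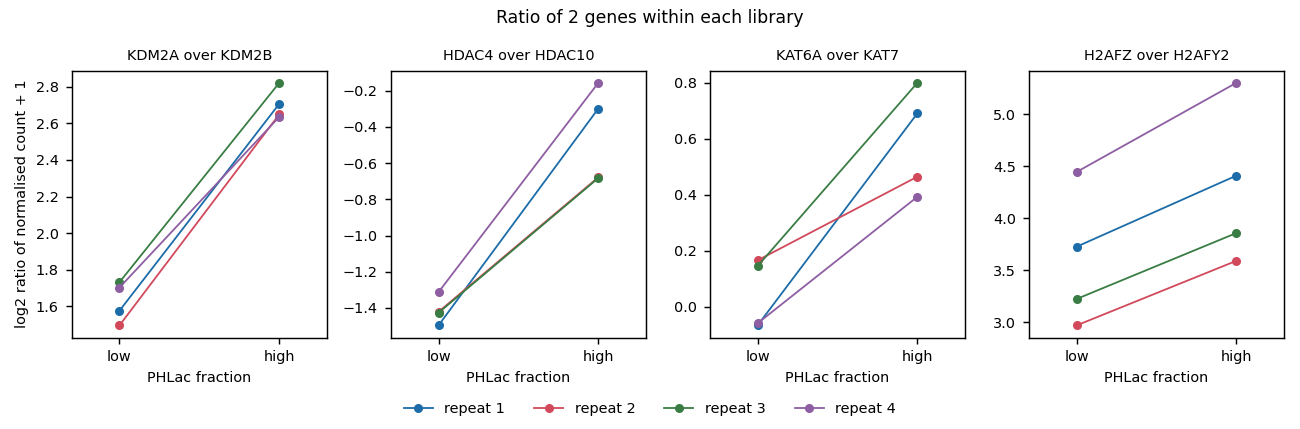
Log2 ratio of 2 related genes within each library, PHLac-low beside PHLac-high, with 1 line per repeat. All lines rise; the KDM2A to KDM2B ratio rises by 0.93 to 1.15 in the 4 repeats.

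Base composition moved with direction among the 48 genes as in the table. Transcript GC content had a median of 45.4% in the 21 enzymes that rose and 54.4% in the 11 that fell, and 46.6% and 56.8% in all listed genes that rose and fell. With every library adjusted for GC and transcript length, 34 of the 48 passed (23 higher and 11 lower), against 62.6% of the table (32.7% higher and 29.9% lower). In that fit 8 of 11 cluster histones, 2 higher and 2 lower variants, and 13 higher and 9 lower enzymes passed. HIST1H2AC, HIST1H2BD and HIST2H2BE were the cluster histones that did not. Among genes that passed in that fit, smaller estimates than with the authors' scaling were found for H3F3B (0.34), KMT2C (0.28), CHD1 (0.32), CHD2 (0.23), CHD7 (0.43) and ARID4B (0.24). Larger ones were found for HIST1H2BK (0.64), H2AFX (0.80), H2AFY2 (-0.38), KAT7 (-0.49) and ARID5A (0.77). The correction used the annotated transcript, which for HIST1H2BK is 381 bases long with 61.2% GC. If the annotation of a cluster histone is too short, its corrected estimate and call could differ. The enzymes that did not pass were SETD7, SETD2, KAT2A, KAT6A, KDM3A, KDM5B, HDAC9, ARID2, ARID3A and ARID4A. With upper-quartile scaling 14 enzymes no longer passed, among them KMT2D, SETD7, SETD2, KAT6A, KDM3A, KDM5B, HDAC4, HDAC9, BRD1, ARID1A, ARID2, ARID4A and ARID5A.

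**Figure D5:**
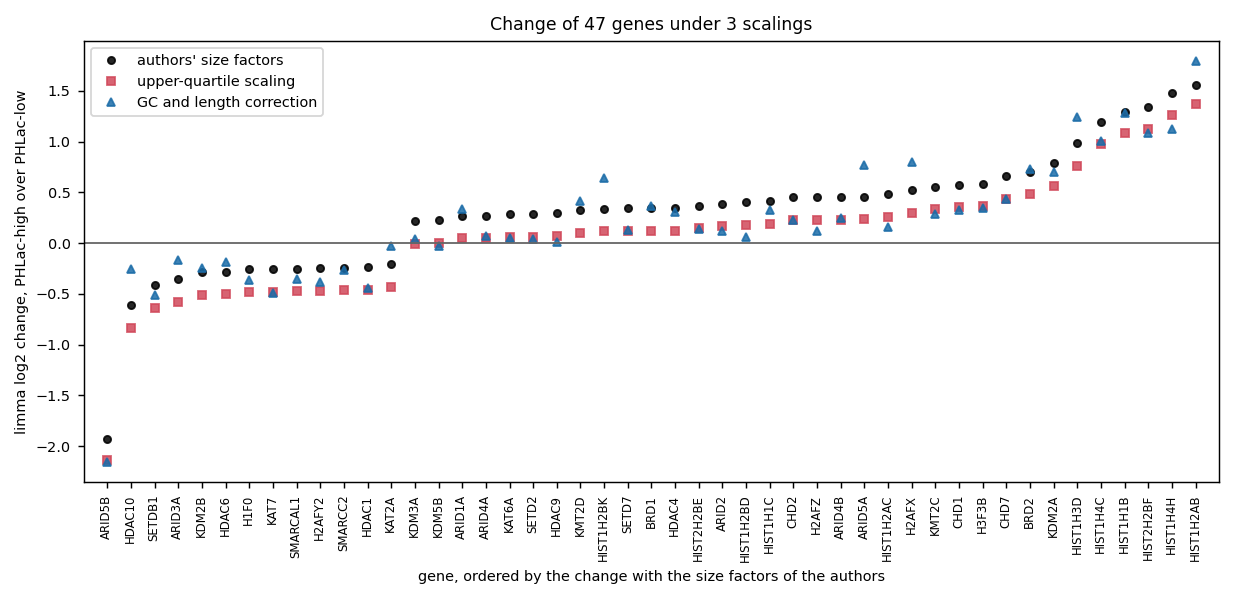
Limma log2 change of each of 47 genes with the size factors of the authors (circles), with upper-quartile scaling (squares) and after GC and length correction (triangles). Upper-quartile scaling lowers every gene by about the same amount and brings the enzyme increases that no longer pass to between -0.0095 and 0.23, while the decreases stay below 0.

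Other chromatin genes outside the symbol rule were taken from 7 lists. Of 135 such genes 34 were in the table, beside 16.7% of all protein-coding symbols. Among the 34, 25 rose and 9 fell in limma with the block, against 58.7% and 41.2% of the table. With upper-quartile scaling 24 of the 34 estimates were above 0, beside 1984 of all 3666. All 3 listed histone chaperones rose, among them UBN1, a subunit of the HIRA complex that deposits H3.3, which had 1934 ± 80.1 for PHLac-low and 2999 ± 275 for PHLac-high (SD, n = 4). HIRA itself rose by 0.33 ± 0.076 and NASP by 0.35 ± 0.064 (SE), and neither passed after upper-quartile scaling. NASP had 8056 ± 2081 for PHLac-low and 10446 ± 3623 for PHLac-high (SD, n = 4).

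Polycomb genes, which maintain repression through H3 lysine 27 methylation, were 6 of 27 in the table and split into 3 higher and 3 lower. Of all listed genes 58.7% passed higher and 41.2% lower. EED, the subunit that binds the mark, rose by 0.56 ± 0.074 (SE). EZH2 and EZH1, the alternative catalytic subunits, changed by 0.32 ± 0.071 and -0.29 ± 0.072 (SE). EZH2 did not pass after upper-quartile scaling (0.092). Of 13 genes for DNA methylation and its readers 3 were in the table, and of these 2 rose and 1 fell. The methyltransferase DNMT3A was the one that fell (-0.37 ± 0.072, SE), and the demethylating oxygenase TET3 rose by 0.40 ± 0.092 (SE). TET3 did not pass after upper-quartile scaling.

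Of 20 further lysine methyltransferase genes 9 were in the table, and of these 7 rose and 2 fell. The whole table had 58.7% higher and 41.2% lower, which also stands beside the counts below. PRDM2 had 1161 ± 70.8 for PHLac-low and 1960.3 ± 245 for PHLac-high (SD, n = 4), and DOT1L, the H3 lysine 79 enzyme, had 2485 ± 376 for PHLac-low and 3635 ± 333 for PHLac-high (SD, n = 4). Among 27 acetylation enzymes and corepressors 7 were in the table, and of these 5 rose and 2 fell. ING1, a reader of H3 lysine 4 methylation in SIN3 complexes, had 1395 ± 178 for PHLac-low and 2553 ± 286 for PHLac-high (SD, n = 4) and the largest change of the 34, 0.87 ± 0.091 (SE, adjusted p from limma = 0.000153). RCOR1, or CoREST, rose by 0.75 ± 0.073 (SE). Among 21 remodellers 4 were in the table, and of these 3 rose and 1 fell. BAZ1A, a chromatin assembly factor, rose by 0.68 ± 0.066 and the helicase INO80 by 0.51 ± 0.062 (SE).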

How the data were processed

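Messenger RNA of MIA PaCa-2 cells sorted into PHLac-low and PHLac-high fractions was sequenced in 4 paired repeats (8 libraries); groups and repeats came from the sample titles. The authors' deposited table holds 3666 genes with a scaled read signal (coverage per gene, called normalised count), the authors' log2 fold change and the authors' adjusted p-value. Per the submitters' processing notes STAR, SAMtools, Subread, DESeq2 and hg38 were used; versions, annotation and strand setting are not given in the sources used here. The values of each column were all multiples of 1 step (100%, tolerance 0.01 step), but 4 columns had under 100 low values, so no count test was run. No column was left unmatched.

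The test was limma 3.58.1 (R 4.3.3, mean-variance trend) on log2(normalised count + 1) with the repeat as a block, two-sided, Benjamini-Hochberg over all 3666 genes at 0.05. The series description states the pairing; libraries of 1 repeat deviated together from the means of their fractions, with correlations across genes of 0.53, 0.66, 0.73 and 0.76, and those of different repeats at no more than 0.27. As the labels do not say how repeats were cultured, p-values with the block measure only the spread of the differences within these repeats. Without the block they measure the spread between these libraries. On simulated data of 3666 genes with 200 changed by 0.5 (log2), the fit with the block recovered 92.5% with 11 false calls. The fit without the block recovered 64.5% with 0 false calls. The simulation gave both libraries of a repeat a shared shift and every gene the same dispersion. The higher recovery with the block follows from that setting and is no support for the block in these data. Recovery was not tested for a table whose genes were all selected for a difference, nor for repeats that differ as widely as in the cluster histones. Alternatives were no block, leaving out each repeat, a pseudocount of 0.1, a mean of at least 100, 2 other scalings, a minimum change, and, chosen after seeing the data, correction for GC content and length (GENCODE release 29, lowess span 0.3, 95.7% of genes, all 48 members). The factors of the 2 other scalings and the GC and length curves were computed from the listed genes alone. The members and lists were chosen with earlier results of these data known. Named were all histones, up to 3 genes per enzyme family and direction, and 2 per further list; ARID1A, ARID4A, SETD2, SMARCC2, EZH1, EZH2, HIRA, CCNE1 and POLE were added after their values were seen. Values of some genes that the counts include are not reported here.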

Additional observations from a re-analysis of the deposited data

Results flagged for a closer look

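In each fraction, the gap between the farthest library and its nearest neighbour was compared with the range of the 4 libraries, for 47 of the 48 genes (94 groups, of which chance picks about 4.7). It picked out 7 groups, and in 6 the far library was of repeat 4. In PHLac-low it was highest for HIST2H2BE (0.834 of the range) and H2AFX (0.835) and lowest for ARID5B (0.90). In PHLac-high repeat 4 was highest for HIST1H2BK (0.901), KAT7 (0.932) and KDM3A (0.949). The remaining one was HIST2H2BF in PHLac-high, where repeat 1 was highest (0.986) at 64.3 normalised counts against 46.3 to 46.6. The groups share their libraries and are not independent.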

How the results depend on the processing

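All 48 genes passed with the block. Without the replicate block 15 passed, after upper-quartile scaling 30, and with a minimum change of 0.5 (log2) 15; leaving out 1 repeat gave from 43 to 47. The median log2 change of the cluster histones was 0.98, and it ranged from 0.67 (without repeat 1) to 1.20 (without repeat 4), was 0.76 after upper-quartile scaling, and was 0.40 for the 5 genes with a mean of at least 100, where 6 were left out. For the variants (0.45) it was 0.23 after upper-quartile scaling and 0.12 after GC and length correction. For the enzymes (0.28) it was 0.054 after upper-quartile scaling, 0.059 after GC and length correction and 0.16 with median-of-ratios scaling. The cause was not tested. The direction changed for KDM3A with upper-quartile scaling (-0.0095) and for KDM5B (-0.032) and PCNA (-0.023) after GC and length correction, and for no other gene named by the rule in the alternatives run. A pseudocount of 0.1 changed no call among the 48. The 2 planned count-based tests were not run, because 4 of the 8 columns held under 100 low values, too few to show whole reads. Low counts limit some cluster histones and ARID5B. HIST1H2AB rests on 3 to 26 steps per library, where a step is the smallest unit of its column. ARID5B had from 5.30 to 55.2 normalised counts.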
